A study of Mus musculus with 24 samples.

Results

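The brown fat transcription regulators described here are 8 protein-coding genes, Prdm16, Ebf2, Zfp516, Ppargc1a, Ppargc1b, Ppara, Esrra and Esrrg. They were chosen by name, and each symbol matched 1 gene identifier among the 37310 genes of the deposited tables. RNA was sequenced from primary stromal vascular cells, the mixed fraction of fat that holds adipocyte precursors, after differentiation in culture. The cells came from the inguinal white adipose tissue (WAT) or the interscapular brown adipose tissue (BAT) of C57BL/6 mice aged 6 weeks. In each depot cells were given EGCG (epigallocatechin gallate, the main green tea catechin) or DMSO as the control, and RNA was taken on day 4 or day 8. This gave 8 groups of 3 libraries: WAT day 4 control, WAT day 4 EGCG, WAT day 8 control, WAT day 8 EGCG, and the same 4 for BAT. All groups shared an induction medium with insulin, dexamethasone and isobutylmethylxanthine for the first 4 days, and the day 8 groups then had insulin and triiodothyronine (T3). No genetic change was made. The labels give no dose of EGCG and do not say whether replicates were separate cultures or animals, so p-values measure the spread between these samples, which may be technical.

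Brown adipocytes burn fuel to make heat, and a small set of transcription regulators sets up and keeps that state. Prdm16 (a zinc finger coregulator), Ebf2 (a helix-loop-helix factor that marks brown precursors) and Zfp516 (a zinc finger protein that binds the Ucp1 promoter) act in brown fat determination. Ppargc1a and Ppargc1b encode the coactivators PGC-1α and PGC-1β, which bind to nuclear receptors and raise the transcription of mitochondrial genes. Their receptor partners include PPARα (Ppara), which responds to fatty acids and drives genes of fat oxidation, and the estrogen-related receptors ERRα (Esrra) and ERRγ (Esrrg), which have no known natural hormone and act on genes of oxidative metabolism.

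Values are FPKM, read counts scaled to gene length and to all reads on genes of the library. The 16 libraries of replicates 1 and 2, in 1 deposited table, had 39452696 to 52893848 reads on genes each. The 8 of replicate 3, in another table, had 16392420 to 41675643, so tests used replicates 1 and 2, and replicate 3 gives values and direction. The WAT day 8 EGCG library of replicate 3 stood apart: 5 genes took 61.0% of its reads, which lowers the FPKM of all other genes in it. Its values are given as deposited and, where marked as rescaled, after those 5 genes were left out of its total. It entered a test only in alternative fits of all 24 libraries, as deposited or rescaled. In the fit of 24 libraries as deposited, 31 of the 82 calls given here were lost without a change of sign. Of all calls lost in that fit, 14 were lost in no other alternative. Losses in that fit are not listed below for every call. Of the BAT position markers, Zic1 was at 3.81 to 10.8 FPKM (group means) in BAT cells and 0.0454 to 0.146 in WAT cells, and Hoxc10, a marker of inguinal fat, was at 6.32 to 11.9 in WAT cells and 0.00563 to 0.0292 in BAT cells. Lhx8, also listed as a BAT position marker, was at 6.90 to 18.4 FPKM in WAT cells too. Over replicates 1 and 2 the 3 BAT position markers (Zic1, Lhx8, Meox2) summed to 16.7 to 45.2 FPKM in BAT and 8.75 to 22.8 in WAT cells. The 3 inguinal markers (Hoxc8, Hoxc9, Hoxc10) summed to 14.8 to 34.8 in WAT and 3.30 to 10.0 in BAT cells. Hoxc8 and Hoxc9 together were thus not absent from BAT cells. Ucp1, the heat-producing protein of brown fat, reached a mean of 6.56 ± 0.579 FPKM (SD, n = 2) in BAT day 8 control cells and had 0 reads in WAT day 8 control and BAT day 8 EGCG cells.

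The 250 bases before the start of 2 regulators are shown because these 2 genes moved differently with EGCG: Ppargc1a was lower in all 4 comparisons and Prdm16 was not. The sequences are from RefSeq (GRCm38.p6) and were placed by an exact match on NCBIM37, at chr5:51958965-51959214 (minus strand) for Ppargc1a and chr4:154010983-154011232 (minus strand) for Prdm16. Both lie just outside the first exon. Capitals mark a match to TGACG, the core of the cAMP response element, which in the Ppargc1a window is on the reverse strand and lies 49 to 45 bases before the start.
Ppargc1a: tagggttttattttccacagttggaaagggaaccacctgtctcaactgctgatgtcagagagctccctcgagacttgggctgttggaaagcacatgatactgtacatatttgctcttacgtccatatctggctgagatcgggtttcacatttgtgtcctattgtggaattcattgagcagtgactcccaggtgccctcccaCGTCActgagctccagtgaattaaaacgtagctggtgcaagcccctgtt
Prdm16: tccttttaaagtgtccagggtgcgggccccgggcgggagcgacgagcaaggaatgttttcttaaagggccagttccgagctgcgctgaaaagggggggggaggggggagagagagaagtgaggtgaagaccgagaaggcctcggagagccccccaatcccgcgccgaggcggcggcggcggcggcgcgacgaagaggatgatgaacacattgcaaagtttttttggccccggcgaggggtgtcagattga
Of all 32851 RefSeq windows of this kind, 17.8% held TGACG on either strand. The full element TGACGTCA, which contains it, was in 1.55% of them and in neither sequence shown. The bases G and C made up 48% of the Ppargc1a window and 62.4% of the Prdm16 window, against a median of 52.4% over all windows. The 8 windows listed for 5 of the regulators were also searched on both strands for TCAAGGTCA (ERR response element, in 0.387% of all windows), AGGTCA (single nuclear receptor site, which the former contains, in 14%), the PPAR direct repeat of the latter (in 0.0335%), the EBF palindrome (in 0.779%), the NRF1 palindrome (in 0.782%) and TTGCGCAA (C/EBP palindrome, in 0.164%). The Ppara window held TGACG and the NRF1 site, and the other 5 were in no window of a regulator. TGACG was added to the search after the sequences had been seen.

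Prdm16 lies on chromosome 4 at 153690234 to 154010982 on the minus strand (build NCBIM37, also called mm9). Ebf2 is at chromosome 14, 67852129 to 68048604 (plus), Zfp516 at chromosome 18, 83080271 to 83174706 (plus), Ppargc1a at chromosome 5, 51845488 to 51958964 (minus), and Ppargc1b at chromosome 18, 61457790 to 61560085 (minus). Ppara is at chromosome 15, 85565413 to 85633249 (plus), Esrra at chromosome 19, 6985467 to 6996303 (minus), and Esrrg at chromosome 1, 189432670 to 190038764 (plus). The exons of Esrra share 73 bases with Trmt112 on the opposite strand, and whether counting used the strand is not stated, so reads from those bases cannot be told apart. The exons of the other 7 regulators overlap no other gene. Over the 16 libraries of replicates 1 and 2 the median level ran from 22.96 FPKM for Esrra and 13.35 for Ebf2 down to the lowest, Esrrg, which stayed below 1 FPKM in every library.

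**Figure D1:**
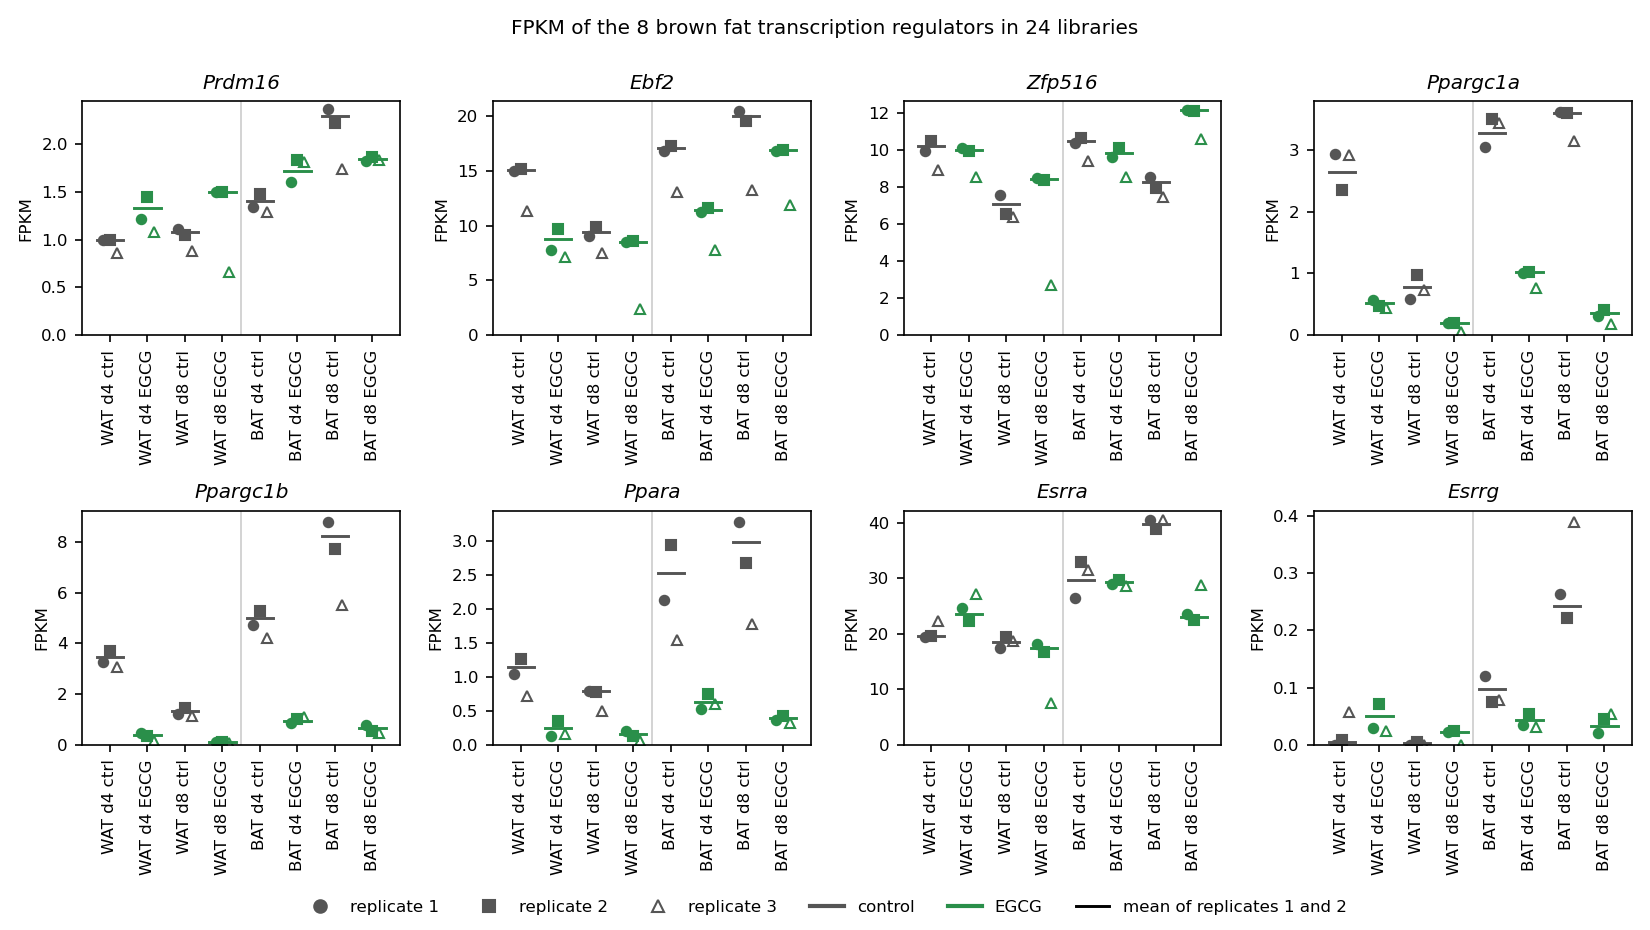
FPKM (vertical axis, linear, from 0) of each regulator in the 24 libraries, by group (d4 and d8 are day 4 and day 8, ctrl is control). Filled circles and squares are replicates 1 and 2, open triangles are replicate 3, and the horizontal lines are the means of replicates 1 and 2. Ppargc1a, Ppargc1b and Ppara were low in all EGCG groups, Esrra and Prdm16 were not, and the replicate 3 library of WAT day 8 EGCG lies low for Prdm16, Ebf2, Zfp516 and Esrra.

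Prdm16 was between 0.658 and 2.37 FPKM in the 24 libraries. In BAT day 8 control cells it was at 2.37, 2.22 and 1.74 FPKM in replicates 1, 2 and 3, and in WAT day 8 control cells at 1.11, 1.05 and 0.876. The BAT libraries were higher than the WAT ones with no overlap. Under EGCG on day 8 it was at 1.83, 1.87 and 1.83 in BAT cells. In WAT cells under EGCG on day 8 it was at 1.50, 1.50 and 0.658 as deposited, the last being 1.69 when rescaled. Among group means of replicates 1 and 2 the order ran from BAT day 8 control (2.29 ± 0.101 FPKM, SD, n = 2) through the 2 BAT EGCG groups, which overlapped, to WAT day 8 control (1.08 ± 0.0471) and WAT day 4 control (0.995 ± 0.00488).

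Ebf2 changed between the days in opposite directions in the depots. In WAT control cells it was at 15.1, 15.1 and 11.4 FPKM on day 4 and at 9.02, 9.86 and 7.52 on day 8. In BAT control cells it was at 16.8, 17.3 and 13.1 on day 4 and at 20.5, 19.6 and 13.2 on day 8. Each replicate 3 value lay below both values of its group, so replicate 3 is read only within its own table. With EGCG, WAT cells had 7.81, 9.70 and 7.17 FPKM on day 4 and 8.48, 8.58 and 2.40 (6.15 rescaled) on day 8. BAT cells had 11.2, 11.7 and 7.74 on day 4 and 16.9, 16.9 and 11.9 on day 8. The means of BAT day 4 control and BAT day 8 EGCG were within their spread of each other. Of the 3 lowest groups, WAT day 4 EGCG was within the spread of both WAT day 8 groups, which did not overlap each other.

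Zfp516 had a narrower range, from 6.36 to 12.2 FPKM outside the library that stood apart. It was highest in BAT day 8 EGCG cells, at 12.2, 12.1 and 10.6 FPKM, and lowest in WAT day 8 control cells, at 7.57, 6.55 and 6.36. The 4 day 4 groups had means of 9.86 to 10.5 FPKM, and neighbours in that order overlapped. BAT day 8 control cells (8.54, 7.95 and 7.47) overlapped WAT day 8 EGCG cells (8.51, 8.37 and 2.71, or 6.94 rescaled).

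The PGC-1 coactivators shared their 3 highest groups and their lowest group. Ppargc1a was at 3.62, 3.60 and 3.15 FPKM in BAT day 8 control cells, 3.050, 3.505 and 3.434 in BAT day 4 control cells and 2.94, 2.36 and 2.92 in WAT day 4 control cells. WAT day 8 control cells, at 0.582, 0.983 and 0.737, stood below these 3 groups. With EGCG it was at 0.568, 0.468 and 0.442 in WAT day 4 cells and at 0.193, 0.202 and 0.0520 (0.133 rescaled) in WAT day 8 cells. BAT cells with EGCG had 1.01, 1.02 and 0.767 on day 4 and 0.307, 0.401 and 0.188 on day 8. Every EGCG library lay below every control library of its own depot and day.

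Ppargc1b reached the highest level of the coactivators, at 8.81, 7.72 and 5.53 FPKM in BAT day 8 control cells. It was at 4.719, 5.272 and 4.1997 in BAT day 4 control cells, 3.27, 3.69 and 3.09 in WAT day 4 control cells and 1.20, 1.45 and 1.12 in WAT day 8 control cells. These 4 control groups did not overlap one another. With EGCG the values were 0.872, 1.004 and 1.10 in BAT day 4 cells and 0.794, 0.522 and 0.444 in BAT day 8 cells. WAT cells with EGCG had 0.447, 0.346 and 0.152 on day 4 and 0.1104, 0.1167 and 0.0656 (0.168 rescaled) on day 8. A count of 3 reads corresponded to 0.0155 to 0.0208 FPKM for this gene in replicates 1 and 2, so the lowest group was above that floor.

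Ppara was below 3.3 FPKM in all libraries. BAT control cells had 2.13, 2.94 and 1.53 FPKM on day 4 and 3.28, 2.67 and 1.77 on day 8, and these 2 groups overlapped. WAT control cells had 1.04, 1.26 and 0.715 on day 4 and 0.795, 0.774 and 0.495 on day 8. With EGCG it was at 0.521, 0.749 and 0.597 in BAT day 4 cells, 0.369, 0.427 and 0.322 in BAT day 8 cells, 0.133, 0.346 and 0.162 in WAT day 4 cells and 0.197, 0.132 and 0.0562 (0.144 rescaled) in WAT day 8 cells. Within replicates 1 and 2 the WAT EGCG groups of the 2 days overlapped, and each EGCG group was below its control.

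Esrra was the most abundant regulator. It was at 40.5, 39.0 and 40.6 FPKM in BAT day 8 control cells, the highest group, and at 17.5, 19.5 and 18.7 in WAT day 8 control cells. BAT day 4 control cells had 26.4, 33.0 and 31.4, and WAT day 4 control cells 19.4, 19.7 and 22.3. With EGCG it was at 29.0, 29.7 and 28.7 in BAT day 4 cells, 23.5, 22.4 and 28.8 in BAT day 8 cells, 24.6, 22.4 and 27.2 in WAT day 4 cells and 18.2, 16.7 and 7.48 (19.2 rescaled) in WAT day 8 cells. On day 8 the EGCG and control libraries of BAT cells did not overlap, and those of WAT cells overlapped in replicates 1 and 2.

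Esrrg did not reach the level at which genes were tested (1 FPKM in at least 2 of 16 libraries), so its reads are given. BAT day 8 control libraries held 66, 47 and 37 reads on it, and BAT day 8 EGCG libraries 5, 13 and 5. BAT day 4 control libraries held 26, 18 and 7, and WAT control libraries 0, 2 and 5 on day 4 and 0, 1 and 0 on day 8. Over replicates 1 and 2, and relative to the reads on all genes, it was 7.28-fold lower with EGCG in BAT day 8 cells (exact 95% interval 4.41 to 12.7) and 2.19-fold lower in BAT day 4 cells (1.28 to 3.83), where the EGCG libraries held 8, 14 and 3 reads. In WAT cells with EGCG the libraries held 7, 18 and 3 reads on day 4 and 6, 5 and 0 on day 8, against the few control reads above, and the ratios of EGCG to control were 12.98 (3.24 to 113.1) and 10.76 (1.56 to 463.1). It was 2.55-fold higher on day 8 than on day 4 in BAT control cells (1.78 to 3.69). BAT control cells exceeded WAT control cells 24.3-fold on day 4 (6.35 to 207.1), where the WAT libraries held 2 reads in all. On day 8 the ratio was 118.1 (20.8 to 4706), with 1 read in the WAT libraries. These intervals cover counting error only and not the spread between cultures. The fit without a filter on low values, which included Esrrg, called the EGCG change in BAT day 8 cells (adjusted p = 1.6e-05, limma) and not those in BAT day 4 (adjusted p = 0.0832), WAT day 4 (0.111) or WAT day 8 cells (0.51). That fit also called the EGCG change in BAT minus that in WAT cells on day 4 (adjusted p = 0.042, limma) and day 8 (0.000494). The EGCG change on day 8 minus that on day 4 was called in BAT (0.00319) and not in WAT cells (0.586). BAT against WAT was called in control cells on day 4 (0.00529) and day 8 (1.67e-05), and not with EGCG (0.935 and 0.855). Day 8 against day 4 was called in BAT control cells (0.000351) and not in BAT cells with EGCG (0.812).

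Which regulators differ between brown and white cells was asked by comparing BAT with WAT at the same day and treatment. All 7 tested regulators were higher in BAT than in WAT cells on day 8 in control medium, and 53.6% of all 14095 genes tested were called in this comparison, 31.6% higher and 22.0% lower. Ppargc1b showed the largest difference, 6.24-fold in FPKM, with a log2 difference of 1.99 ± 0.106 (SE) on the log2(FPKM + 1) scale (adjusted p = 5.04e-08). Ppargc1a was 4.62-fold higher (1.38 ± 0.116, adjusted p = 1.67e-06) and Ppara 3.80-fold (1.15 ± 0.135, adjusted p = 2.38e-05). Esrra, Ebf2 and Prdm16 were each higher by close to the same factor, 2.15-, 2.12- and 2.12-fold. Zfp516 was 1.17-fold higher (0.20 ± 0.0617, adjusted p = 0.0168). All p-values are from limma, adjusted by the Benjamini-Hochberg method over all genes tested, and the log2(FPKM + 1) scale understates the change of genes near or below 1 FPKM. All 7 were also higher in BAT in replicate 3. The call for Zfp516 was lost after quantile normalization (adjusted p = 0.0503, with a range of 0.000583 to 0.549 over 26 alternatives) and without BAT day 8 control replicate 1 or WAT day 8 control replicate 2.

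In control cells on day 4 Prdm16, Ppargc1b, Esrra and Ppara were higher in BAT than in WAT cells, 4 of 7 tested, where 55.8% of all genes were called and 41.4% were called higher. Ppara had the largest difference (log2 difference 0.71 ± 0.135, adjusted p = 0.000984), and Esrra was 1.52-fold higher (0.57 ± 0.0890, adjusted p = 0.000248). Ppargc1b was 1.44-fold higher and Prdm16 1.41-fold. Ebf2 (0.17 ± 0.0754, adjusted p = 0.0793), Ppargc1a (0.23 ± 0.116, adjusted p = 0.112) and Zfp516 (0.04 ± 0.0617, adjusted p = 0.623) did not pass the test. Ebf2 and Ppargc1a were called higher in the voom fit on recovered reads and in 24 rescaled libraries, and Ebf2 in 23 libraries too. The Prdm16 call was lost after median-ratio scaling and quantile normalization, with 24 libraries as deposited and without WAT or BAT day 4 control replicate 2. The Ppargc1b call was lost after quantile normalization.

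With EGCG the depot difference was called for 6 of 7 on day 4 and for 4 of 7 on day 8, where 48.7% and 38.4% of all genes were called. On day 8 these were Ebf2 (1.98-fold higher in BAT, log2 difference 0.91 ± 0.0754), Zfp516 (1.44-fold, 0.48 ± 0.0617), Ppargc1b (5.80-fold, 0.57 ± 0.106) and Esrra (1.32-fold, 0.38 ± 0.0890). Ppargc1b was then at 0.658 ± 0.192 FPKM in BAT and 0.114 ± 0.00440 in WAT cells, so a large ratio came from low levels in both depots. Prdm16 (0.19 ± 0.0799, adjusted p = 0.0859), Ppargc1a (0.18 ± 0.116, adjusted p = 0.262) and Ppara (0.26 ± 0.135, adjusted p = 0.149) did not pass the test on day 8. Ppargc1a was then at 0.354 ± 0.0661 FPKM in BAT and 0.198 ± 0.00600 in WAT cells, and Ppara at 0.398 ± 0.0406 and 0.165 ± 0.0459. These levels are below 1 FPKM, where the log2(FPKM + 1) scale understates differences. The voom fit called 5 of 7 on day 8. On day 4, where 32.9% of all genes were higher in BAT, Zfp516 was the one regulator not called, and Ppara (2.65-fold), Ppargc1b (2.37-fold) and Ppargc1a (1.96-fold) had the largest ratios. The day 4 count fell from 6 to 2 without BAT day 4 EGCG replicate 2. There the Prdm16 call was also lost without the filter, after median-ratio scaling and quantile normalization, and without WAT day 4 EGCG replicate 1, BAT day 8 EGCG replicate 1 or BAT day 8 EGCG replicate 2, those of Ppargc1a and Esrra without WAT day 4 EGCG replicate 2, and that of Ppara without WAT day 4 EGCG replicate 1 or without the filter. The Esrra call was lost after quantile normalization too. The day 8 Esrra call was lost without WAT day 8 EGCG replicate 2.

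Depot differences in the control cells went with more mature adipocyte transcripts in BAT. The summed FPKM of 20 mature adipocyte markers was 9404 to 10891 in BAT and 4858 to 5377 in WAT on day 4, and 22439 to 22655 in BAT and 11862 to 13317 in WAT on day 8 (replicates 1 and 2). The progenitor sum was 449.2 to 535.5 in BAT and 414.5 to 447.1 in WAT on day 4, and 612.9 to 617 and 1357 to 1447 on day 8. The macrophage sum was 194.8 to 207.2 in BAT and 83.2 to 88.9 in WAT on day 4, and 137.2 to 138.5 and 141.7 to 177 on day 8. In bulk samples fewer cells of a type and less RNA per cell cannot be told apart. The part of these markers in the regulators' differences was not tested.

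**Figure D2:**
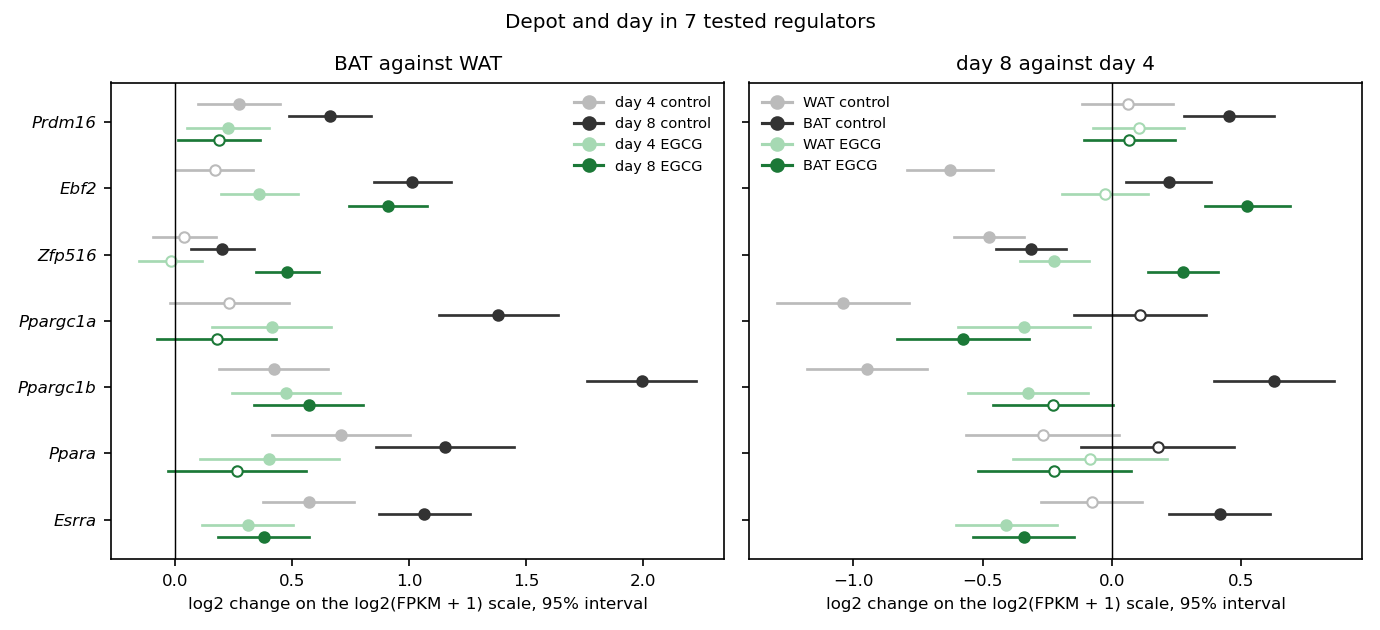
Log2 differences on the log2(FPKM + 1) scale (horizontal axis) for the 7 tested regulators, BAT against WAT at left and day 8 against day 4 at right, from 2 libraries a group. Points are limma estimates, bars are 95% intervals and filled points have an adjusted p under 0.05. All 7 points for BAT against WAT in day 8 control cells are filled and above 0, with Ppargc1b farthest at 1.99, and in control cells the day 8 against day 4 points of Ppargc1b lie at -0.95 in WAT and 0.63 in BAT.

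How the regulators change as cells mature was asked by comparing day 8 with day 4 within a depot. In WAT control cells 4 of 7 fell and none rose, where 61.0% of all genes were called and 33.2% were called lower. Ppargc1a fell 3.39-fold (log2 change -1.04 ± 0.116, adjusted p = 1.12e-05), Ppargc1b 2.63-fold (-0.95 ± 0.106, adjusted p = 1.12e-05), Ebf2 1.60-fold (-0.63 ± 0.0754, adjusted p = 2.03e-05) and Zfp516 1.44-fold (-0.48 ± 0.0617, adjusted p = 3.68e-05). Prdm16 (0.06 ± 0.0799), Esrra (-0.08 ± 0.0890) and Ppara (-0.27 ± 0.135, adjusted p = 0.108) were not called. Over the same days the mature adipocyte marker sum of WAT control cells went from 4858-5377 to 11862-13317 FPKM, that of progenitor markers from 414.5-447.1 to 1357-1447, that of macrophage markers from 83.2-88.9 to 141.7-177, that of endothelial markers from 18.1-19.3 to 27.7-30.7 and that of mural markers from 85.5-102.4 to 172.4-243.8. Their part in these changes was not tested.

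BAT control cells differed in direction. There 4 of 7 rose and 1 fell, where 69.2% of all genes were called, 28.7% higher and 40.4% lower. Ppargc1b rose 1.65-fold (0.63 ± 0.106, adjusted p = 0.000229), Prdm16 1.63-fold (0.45 ± 0.0799, adjusted p = 0.000317), Esrra 1.34-fold (0.42 ± 0.0890, adjusted p = 0.0013) and Ebf2 1.17-fold (0.22 ± 0.0754, adjusted p = 0.0216). Zfp516 fell 1.27-fold (-0.31 ± 0.0617, adjusted p = 0.000712), as it did in WAT control cells. Ppargc1a (0.11 ± 0.116) and Ppara (0.18 ± 0.135) were not called. The Ebf2 call was lost without BAT day 4 control replicate 1 or BAT day 8 control replicate 1, and in replicate 3 Ebf2 was 0.02 higher on the log2 scale. With 24 libraries as deposited, the calls of Ebf2, Esrra and Zfp516 were lost. In BAT control cells the mature adipocyte sum went from 9404-10891 to 22439-22655 FPKM, the progenitor sum from 449.2-535.5 to 612.9-617, the macrophage sum from 194.8-207.2 to 137.2-138.5, the endothelial sum from 12.5-14.9 to 20.9-21.6 and the mural sum from 53.0-67.2 to 232.4-273, and their part was not tested.

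The test of the difference between the depots in this change called 5 of 7, all more positive in BAT than in WAT, where 40.0% of all genes were called and 14.8% were more positive. The difference was 1.57 ± 0.150 for Ppargc1b (adjusted p = 1.89e-05), 1.15 ± 0.165 for Ppargc1a (adjusted p = 0.000285) and 0.85 ± 0.107 for Ebf2 (adjusted p = 0.000128). It was 0.49 ± 0.126 for Esrra (adjusted p = 0.00909) and 0.39 ± 0.113 for Prdm16 (adjusted p = 0.0167). Replicate 3 gave the same direction for all 5. The Prdm16 call was lost without BAT day 4 control replicate 1 or BAT day 8 control replicate 1. Ppara (0.44 ± 0.191, adjusted p = 0.0864) and Zfp516 (0.16 ± 0.0872, adjusted p = 0.165) did not pass the test.

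With EGCG, WAT cells had lower Ppargc1a (-0.34 ± 0.116), Ppargc1b (-0.33 ± 0.106), Esrra (-0.41 ± 0.0890) and Zfp516 (-0.22 ± 0.0617) on day 8 than on day 4, 4 of 7 where 59.5% of all genes were called, 31.8% higher and 27.7% lower. The log2(FPKM + 1) scale understates the changes of the coactivators, which were near or below 1 FPKM. Mean FPKM in WAT cells went from 0.518 to 0.198 for Ppargc1a and from 0.396 to 0.114 for Ppargc1b. It went from 23.5 to 17.5 for Esrra and from 10.0 to 8.44 for Zfp516. In BAT cells with EGCG, Ebf2 (0.52 ± 0.0754) and Zfp516 (0.28 ± 0.0617) rose and Ppargc1a (-0.58 ± 0.116) and Esrra (-0.34 ± 0.0890) fell, 4 of 7 where 58.0% of all genes were called. Zfp516 thus fell with time in both control series and in WAT cells with EGCG, and rose in BAT cells with EGCG. Esrra in replicate 3 of BAT cells with EGCG was 0.007 higher on day 8, and Ppargc1b in replicate 3 of WAT cells with EGCG was -0.11 as deposited and 0.02 when rescaled. The WAT calls of Ppargc1a and Ppargc1b were both lost without WAT day 4 EGCG replicate 1, WAT day 8 EGCG replicate 1 or WAT day 8 EGCG replicate 2. That of Ppargc1b was also lost with 24 libraries, as deposited or rescaled. Ppargc1b was not called in BAT cells with EGCG (-0.23, adjusted p = 0.0844, limma). It was called lower there in 23 libraries and in 24 rescaled libraries.

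What EGCG does to the regulators was asked in each depot and day. Ppargc1a, Ppargc1b and Ppara were lower with EGCG in all 4 comparisons, and no setting tried, with 16, 23 or 24 libraries, ended any of these 12 calls. Ppargc1b fell 8.78-fold on day 4 and 11.7-fold on day 8 in WAT cells, and 5.32-fold and 12.6-fold in BAT cells. Ppargc1a fell 5.12-, 3.96-, 3.22- and 10.2-fold in the same order. Ppara fell 4.81-, 4.76-, 3.99- and 7.49-fold. The share of all genes called was 53.7% in WAT day 4 (34.4% higher and 19.3% lower), 63.6% in WAT day 8 (18.9% lower), 48.5% in BAT day 4 (20.6% lower) and 72.6% in BAT day 8 (26.1% lower). In these comparisons 6, 5, 4 and 7 of the 7 tested regulators were called, of which 4, 3, 4 and 6 were lower. The log2 change of Ppargc1b was -1.68 ± 0.106, -1.06 ± 0.106, -1.63 ± 0.106 and -2.48 ± 0.106 in that order, with adjusted p of 1.76e-07, 3.95e-06, 2.28e-07 and 1.46e-09. Leaving out the 5 genes in the library that stood apart, replicate 3 gave 0.86 as the size of the Ppargc1b decrease in WAT day 8 cells against 0.99 as deposited.

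The determination factors did not move together with EGCG. Ebf2 fell in WAT day 4 cells (1.72-fold, -0.73 ± 0.0754, adjusted p = 9.17e-06), in BAT day 4 cells (1.49-fold, -0.54 ± 0.0754, adjusted p = 0.000103) and in BAT day 8 cells (1.19-fold, -0.23 ± 0.0754, adjusted p = 0.0147). In WAT day 8 cells its change was -0.13 ± 0.0754 (adjusted p = 0.152), and it was called lower there under 6 of 26 alternatives: after median-ratio scaling (-0.31) and quantile normalization (-0.27), with 24 libraries as deposited (-0.53) or rescaled (-0.17), and without WAT day 4 EGCG replicate 1 or 2 (-0.13). The BAT day 8 call was lost with 24 libraries as deposited and without BAT day 8 EGCG replicate 1, BAT day 8 EGCG replicate 2 or BAT day 8 control replicate 1. Zfp516 rose in BAT day 8 cells 1.47-fold (0.51 ± 0.0617, adjusted p = 1.23e-05) and in WAT day 8 cells 1.19-fold (0.23 ± 0.0617, adjusted p = 0.00623), and was not called on day 4 (-0.02 and -0.08). The WAT day 8 call was lost after median-ratio scaling (0.05) and quantile normalization (0.12), with 24 libraries as deposited (-0.18) and without WAT day 8 control replicate 2. In replicate 3 of WAT day 8 it was -0.99 as deposited and 0.11 when rescaled.

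Prdm16 was higher with EGCG in WAT cells and lower in BAT day 8 cells, in each case by less than 1.4-fold. The log2 change was 0.22 ± 0.0799 in WAT day 4 cells (adjusted p = 0.035), 0.26 ± 0.0799 in WAT day 8 cells (adjusted p = 0.0124), 0.18 ± 0.0799 in BAT day 4 cells (adjusted p = 0.0913) and -0.21 ± 0.0799 in BAT day 8 cells (adjusted p = 0.0323). The BAT day 4 change was called higher in the voom fit on recovered reads, in 23 libraries and in 24 rescaled libraries. In replicate 3 of BAT day 4 cells Prdm16 was at 1.81 FPKM with EGCG and 1.29 in control. Replicate 3 went the other way in BAT day 8 cells, with EGCG 0.05 higher, and in WAT day 8 cells gave -0.18 as deposited and 0.52 when rescaled. The BAT day 8 call was lost without any 1 of the 4 BAT day 8 libraries and with all 3 replicates in 23 libraries (-0.12). It was also lost with a pseudocount of 0.1, without the filter and with 24 libraries, as deposited or rescaled. The WAT day 4 call was lost after median-ratio scaling (0.15) and quantile normalization (0.07), without the filter, with 24 libraries as deposited, and without WAT day 4 control replicate 1, WAT day 4 control replicate 2 or WAT day 4 EGCG replicate 2. The WAT day 8 call was lost after median-ratio scaling (0.15), with 24 libraries as deposited, and without WAT day 8 EGCG replicate 1 or WAT day 8 control replicate 2. These alternatives gave adjusted p of up to 0.475, 0.597 and 0.477 in WAT day 4, WAT day 8 and BAT day 8 cells, and down to 0.00724, 0.000345 and 0.00246.

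Esrra fell with EGCG in BAT day 8 cells, 1.73-fold (-0.77 ± 0.0890, adjusted p = 8.37e-06), from 39.0-40.5 to 22.4-23.5 FPKM in replicates 1 and 2. In WAT day 4 cells it was 1.20-fold higher (0.25 ± 0.0890, adjusted p = 0.0318). That call was lost after median-ratio scaling and quantile normalization, without the filter and with 24 libraries as deposited. It was also lost without WAT day 4 control replicate 1, WAT day 4 control replicate 2 or WAT day 4 EGCG replicate 1. The Esrra change was -0.08 ± 0.0890 in WAT day 8 and -0.01 ± 0.0890 in BAT day 4 cells, neither called. It was called lower in WAT day 8 cells after median-ratio scaling (-0.27) and quantile normalization (-0.25).

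Scaling bears on these small changes because the median of all genes was itself above 0 on the log2 scale with EGCG, by 0.09 and 0.17 in WAT cells (day 4 and day 8) and 0.03 and 0.17 in BAT cells. Relative to that median, Prdm16 stood at 0.13, 0.10, 0.14 and -0.38. Of the genes called, 64.1%, 70.3%, 57.6% and 64% were higher with EGCG, and after median-ratio scaling 44.7%, 51.2%, 51.3% and 51.8%. After quantile normalization the share in WAT day 4 cells was 52.4%.

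**Figure D3:**
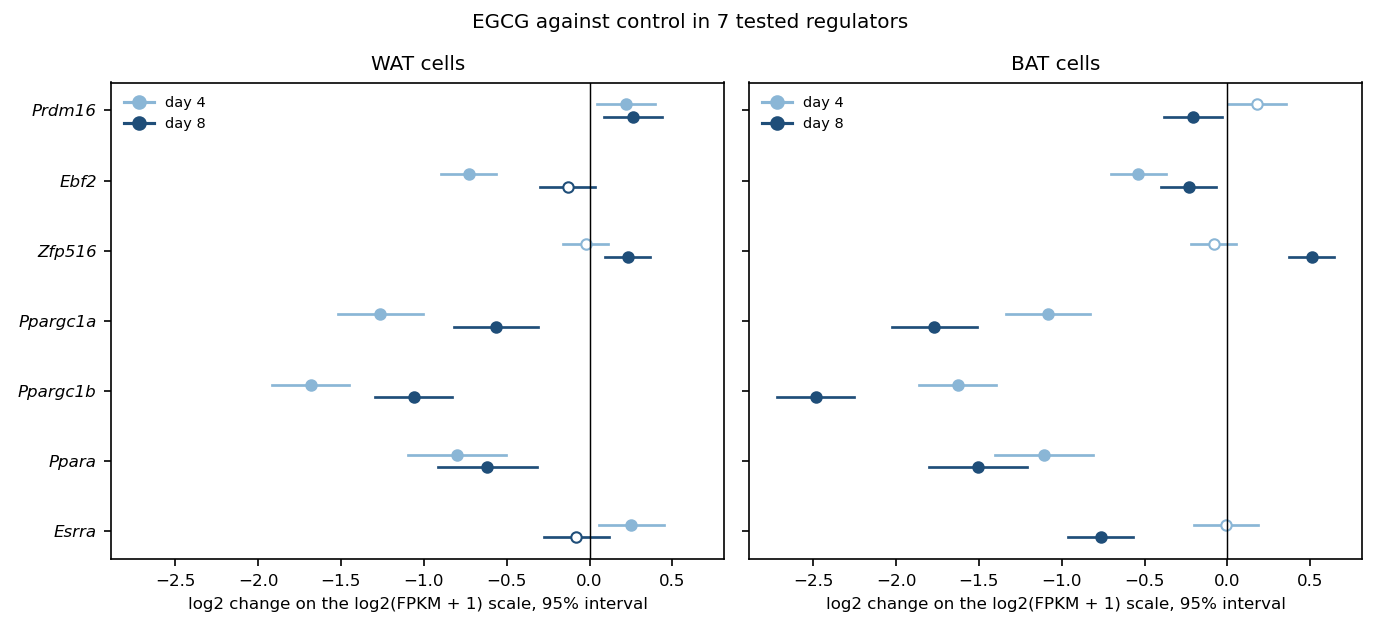
Log2 change with EGCG against control on the log2(FPKM + 1) scale (horizontal axis, the same in both panels) for the 7 tested regulators in WAT and BAT cells, from 2 libraries a group. Points are limma estimates, bars are 95% intervals and filled points have an adjusted p under 0.05. Ppargc1a, Ppargc1b and Ppara lie left of 0 on both days in both depots, down to -2.48 for Ppargc1b in BAT day 8 cells, and Zfp516 lies right of 0 on day 8.

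Whether EGCG acted differently in the depots was tested as the EGCG change in BAT minus that in WAT. On day 4 none of 7 passed in limma, 0 at an unadjusted p under 0.05 and 0 in the voom fit on recovered reads, where 28.1% of all genes were called. On day 8, 6 of 7 passed, where 39.2% of all genes were called. The difference was -1.42 ± 0.150 for Ppargc1b (adjusted p = 2.79e-05), -1.20 ± 0.165 for Ppargc1a (adjusted p = 0.000171), -0.89 ± 0.191 for Ppara (adjusted p = 0.00341), -0.69 ± 0.126 for Esrra (adjusted p = 0.00126), -0.47 ± 0.113 for Prdm16 (adjusted p = 0.00614) and 0.28 ± 0.0872 for Zfp516 (adjusted p = 0.0253). For Ppargc1b and Ppara this depended on the scale. The FPKM of Ppargc1b was 11.7-fold lower in WAT and 12.6-fold lower in BAT cells. In the voom fit, which works on ratios, its difference was -0.20 (adjusted p = 0.78, with a range of 3.73e-07 to 0.78 over 26 alternatives), and that of Ppara was -0.67 (adjusted p = 0.395). The Ppargc1a difference was called there too (-1.46, adjusted p = 0.0153), as were those of Esrra (-0.72), Prdm16 (-0.78) and Zfp516 (0.30). In replicate 3 all 6 had the same sign after rescaling, and as deposited Prdm16 (0.23) and Esrra (0.74) had the other sign. The Zfp516 difference was lost without WAT day 8 EGCG replicate 1 or 2, BAT day 8 EGCG replicate 1 or 2, WAT day 8 control replicate 1 or BAT day 8 control replicate 2.

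Between the days, the EGCG change in BAT cells on day 8 minus that on day 4 was called for 6 of 7, where 55.4% of all genes were called, 34.7% higher and 20.6% lower. It was -0.86 ± 0.150 for Ppargc1b, -0.76 ± 0.126 for Esrra, -0.69 ± 0.165 for Ppargc1a and -0.39 ± 0.113 for Prdm16, and 0.59 ± 0.0872 for Zfp516 and 0.30 ± 0.107 for Ebf2. In WAT cells 5 of 7 were called, where 49.4% of all genes were called: 0.70 ± 0.165 for Ppargc1a, 0.62 ± 0.150 for Ppargc1b, 0.60 ± 0.107 for Ebf2, 0.25 ± 0.0872 for Zfp516 and -0.33 ± 0.126 for Esrra. The WAT values of the coactivators depended on the scale. In the voom fit Ppargc1a was at 0.475 (adjusted p = 0.377) and Ppargc1b turned to -0.36 (adjusted p = 0.593), where the adjusted p ranged over 26 alternatives from 5.67e-05 to 0.377 and from 0.000349 to 0.737. In replicate 3 of WAT cells Ebf2 (-0.72) and Zfp516 (-0.93) had the other sign as deposited and the same sign when rescaled (0.35 and 0.17). The Prdm16 difference in BAT cells was lost without BAT day 4 EGCG replicate 2. The Ebf2 difference in BAT cells was lost after both scalings, without the filter and without BAT day 4 EGCG replicate 1, BAT day 4 control replicate 1 or 2, BAT day 8 EGCG replicate 1 or 2 or BAT day 8 control replicate 2. The Zfp516 difference in WAT cells was lost after both scalings and without WAT day 4 or day 8 EGCG replicate 1 or 2 or WAT day 4 or day 8 control replicate 2. The Esrra difference in WAT cells was kept when the library left out was WAT day 4 EGCG replicate 2, WAT day 8 EGCG replicate 1, WAT day 8 control replicate 1 or BAT day 4 control replicate 1 or 2, and was lost without any other.

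EGCG lowered the mature adipocyte transcripts in the same libraries. The 20 markers summed to 1335 to 1396 FPKM in WAT day 4, 769 to 835 in WAT day 8, 2392 to 2434 in BAT day 4 and 796 to 812 in BAT day 8 cells with EGCG, against the control sums above, and 19, 20, 20 and 20 of them were called lower. Pck1 was at 0 reads in WAT day 8 cells with EGCG. Other lists moved too. On day 8 with EGCG, 9 of 9 tested macrophage markers were called lower in WAT and 8 of 9 in BAT (10 listed), with sums of 60.4 to 63.4 against 141.7 to 177 FPKM in WAT and 63.5 to 64.9 against 137.2 to 138.5 in BAT cells. On day 4 they went the other way, with 8 of 9 higher in WAT and 6 of 9 in BAT cells and sums of 211 to 214.1 against 83.2 to 88.9 and 412.3 to 454.3 against 194.8 to 207.2. Of 7 tested endothelial markers (8 listed), 5, 5, 7 and 7 were higher in the 4 comparisons, with day 8 sums of 43.5 to 43.6 against 27.7 to 30.7 in WAT and 45.6 to 46.4 against 20.9 to 21.6 in BAT cells.

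The 4 mural markers summed on day 4 to 42.1 to 43.6 FPKM with EGCG against 85.5 to 102.4 in WAT cells, with 1 called higher and 2 lower, and to 365.6 to 455.1 against 53.0 to 67.2 in BAT cells, with 3 called higher. They summed on day 8 to 321.4 to 336.1 FPKM with EGCG against 172.4 to 243.8 in WAT cells, and to 768.6 to 857.6 against 232.4 to 273 in BAT cells, with 1 of 4 called higher in each depot and 1 lower in WAT and 2 lower in BAT. The 8 skeletal muscle markers, of which Ckm had 4 to 74 reads a group and Myf5 0 to 28, summed to 127.1 to 131.2 against 73.4 to 74.0 FPKM in WAT day 4 cells and to 41.2 to 41.6 against 51.1 to 52.6 in BAT day 8 cells, with 5 of 5 tested called higher in the former and 1 lower in the latter. The 7 adipose progenitor markers summed on day 4 to 625.4 to 636.3 FPKM with EGCG against 414.5 to 447.1 in WAT cells and to 635.1 to 681.6 against 449.2 to 535.5 in BAT cells, with 2 of 6 tested called higher in each depot and 2 lower in WAT and 1 in BAT. On day 8 they summed to 964.9 to 979 against 1357 to 1447 in WAT day 8 cells and to 620.8 to 626.1 against 612.9 to 617 in BAT day 8 cells, with 4 and 3 of 6 tested called lower and 1 higher in each. No marker of the macrophage or endothelial list was at 0 reads in any group. The part of these lists in the regulators' changes was not tested.

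The genes around the regulators give their context. The coactivators and receptors act on a shared set of mitochondrial genes, and of 13 tested genes listed as targets of ERR and PGC-1, 12 fell with EGCG in WAT day 4, 10 in WAT day 8 and 13 in BAT cells on each day. The median of the list, in the order WAT day 4 and 8, then BAT day 4 and 8, was -0.59, -0.47, -0.77 and -1.73 on the log2 scale, against 0.09, 0.17, 0.03 and 0.17 over all genes. In that order 19.3%, 18.9%, 20.6% and 26.1% of all genes were called lower, and 34.4%, 44.7%, 27.9% and 46.5% higher. Idh3a, a subunit of isocitrate dehydrogenase, was at 143.6 ± 1.05 FPKM in BAT day 8 control and 29.4 ± 1.14 in BAT day 8 EGCG cells (SD, n = 2), 4.88-fold lower. In WAT day 8 cells it was 2.09-fold lower, and Slc25a4, the mitochondrial ADP/ATP carrier, was 1.16-fold higher. In day 8 control cells all 13 were higher in BAT than in WAT, with a median of 1.35.

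Of 16 tested PPARα target genes, 12, 14, 11 and 13 fell and 2, 2, 3 and 2 rose with EGCG in WAT day 4, WAT day 8, BAT day 4 and BAT day 8 cells, with medians of -0.38, -0.70, -0.64 and -1.92. In BAT day 8 cells Plin5, a lipid droplet coat protein of oxidative tissues, went from 20.5 ± 3.21 to 0.223 ± 0.0192 FPKM, and Pdk4, a kinase that spares glucose, from 71.0 ± 1.91 to 5.35 ± 0.126. In WAT day 8 cells Ehhadh (peroxisomal oxidation) fell from 5.42 ± 0.448 to 0.753 ± 0.0531. Cpt1a, which lets fatty acids into mitochondria, rose in both depots on day 8, 2.54-fold in BAT and 1.63-fold in WAT cells. Of 10 tested thermogenic effectors 8 fell and 2 rose in BAT day 8 cells, with a median of -2.17. The median was -2.47 with Ucp1 at its floor of 3 reads. That Ucp1 value is a plain log2 ratio of FPKM, without the pseudocount of the other values. Cox7a1, an oxidase subunit, fell from 190.6 ± 1.19 to 3.26 ± 0.539 FPKM and Kcnk3, a potassium channel, from 41.7 ± 1.47 to 0.446 ± 0.0361. In WAT day 8 cells 5 fell and 2 rose, with a median of -0.22. Fabp3 rose in both depots, 22.6-fold in BAT and 9.10-fold in WAT cells.

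**Figure D4:**
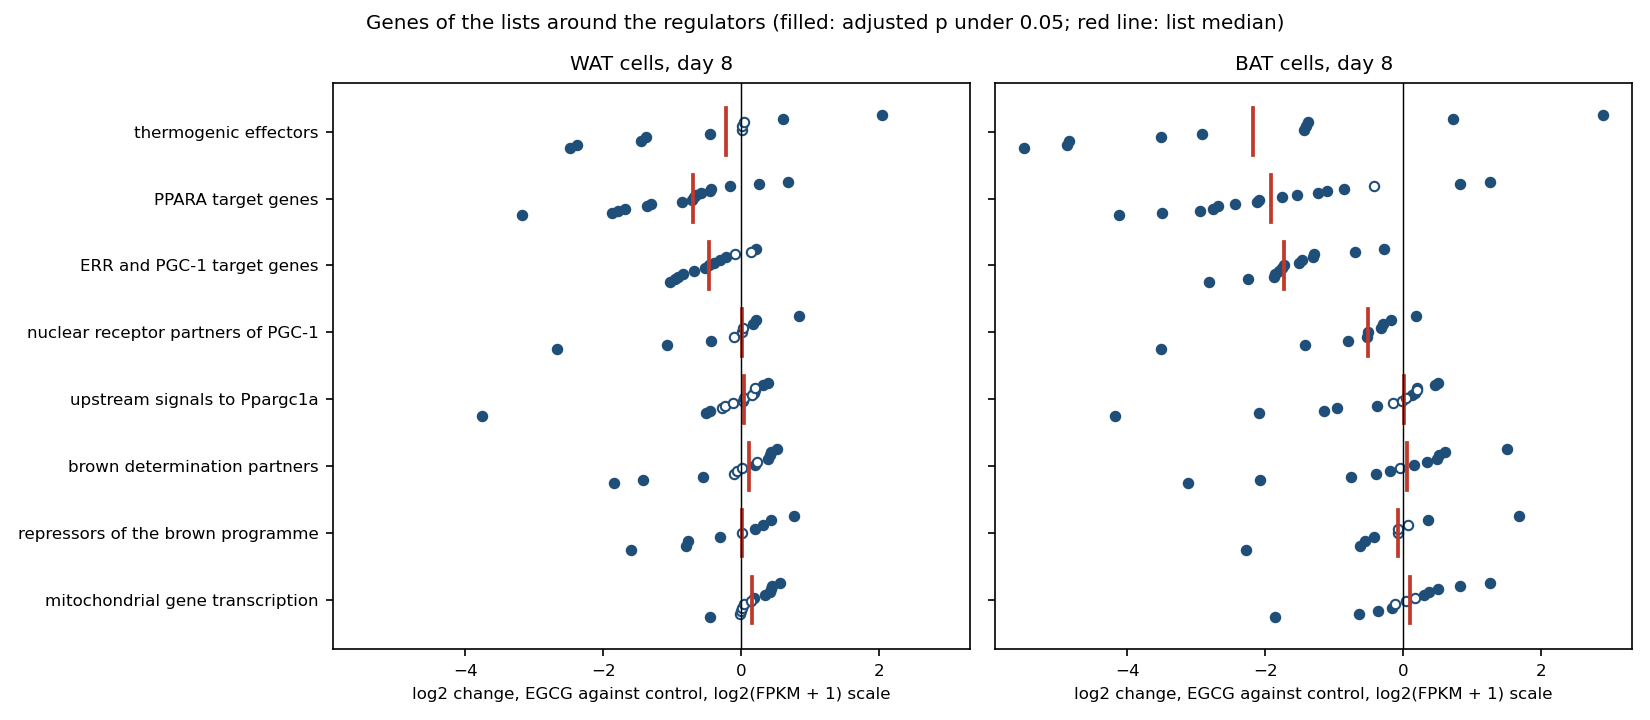
Log2 change with EGCG on day 8 on the log2(FPKM + 1) scale (horizontal axis) for the tested genes of 8 lists around the regulators, in WAT cells at left and BAT cells at right. Each point is a gene, filled where its adjusted p was under 0.05, and red lines are list medians. In BAT cells the medians of the thermogenic, PPARα target and ERR and PGC-1 target lists lie at -2.17, -1.92 and -1.73, and that of the mitochondrial gene transcription list lies at 0.11.

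Genes that work with the regulators or control them went in both directions, as did all genes tested. Of all genes, 46.5% were called higher and 26.1% lower with EGCG in BAT day 8 cells, and 44.7% and 18.9% in WAT day 8 cells. Of 9 nuclear receptor partners of PGC-1, 8 fell and 1 rose in BAT day 8 cells (median -0.51), and 3 fell and 3 rose in WAT day 8 cells (median 0.02). Pparg, the master receptor of adipocytes, went from 138.3 ± 1.71 to 11.2 ± 0.147 FPKM in BAT and from 60.2 ± 8.49 to 8.56 ± 0.712 in WAT cells, and Nr1d1, the clock repressor REV-ERBα, was 1.15- and 1.87-fold higher. Of 14 genes that signal to Ppargc1a, 5 rose and 5 fell in BAT and 4 rose and 3 fell in WAT day 8 cells. Adrb3, the β3-adrenergic receptor, fell from 97.8 ± 5.44 to 4.42 ± 0.106 in BAT and from 17.9 ± 3.02 to 0.389 ± 0.00434 in WAT cells.

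Of 12 partners in brown determination, 6 rose and 5 fell in BAT and 5 rose and 3 fell in WAT day 8 cells. The shares over all genes, for this list and the next 2, were 46.5% higher and 26.1% lower in BAT and 44.7% and 18.9% in WAT. Irf4, a factor that works with PGC-1α, fell from 8.05 ± 0.157 to 0.0430 ± 0.00970 FPKM in BAT cells. Foxc2 rose 3.86-fold there, and Kdm1a, a histone demethylase that binds Prdm16, rose 1.55-fold in BAT and 1.36-fold in WAT cells. Of 9 listed repressors 2 rose and 4 fell in BAT and 4 rose and 4 fell in WAT cells. Nrip1, the corepressor RIP140, fell 1.60-fold in BAT and 1.79-fold in WAT cells. Of 12 tested genes of mitochondrial gene transcription 5 rose and 4 fell in BAT (median 0.11) and 6 rose and 1 fell in WAT cells (median 0.17). Pprc1, the third PGC-1 family member, rose in BAT cells from 5.99 ± 0.332 to 15.9 ± 0.167 while Ppargc1a and Ppargc1b fell, and Nrf1 rose 1.93-fold in BAT and 1.44-fold in WAT cells. Sirt3, the mitochondrial deacetylase, fell 4.04-fold in BAT and 1.43-fold in WAT cells.

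The genes most like each regulator over the 16 libraries of replicates 1 and 2 were found by Pearson's r of log2(FPKM + 1). The 16 libraries are 8 groups of 2 that share depot, day and treatment, so r describes the group pattern and carries no p. Ppara was most like Bcl2l13 (r = 0.991) and Idh3a (0.983), Ppargc1b most like Letmd1 (0.982) and Bcl2l13 (0.979), and Ppargc1a most like Slc25a5 (0.973) and Cyth1 (0.972). Esrra was most like 1110020G09Rik (0.969) and Mapk14 (0.960), Ebf2 most like Lrpprc (0.955) and its relative Ebf3 (0.911), Prdm16 most like Cdc34 (0.951) and Rb1 (0.949), and Zfp516 most like Sos1 (0.917) and Elk1 (0.914). Among the regulators, Ppargc1a, Ppargc1b and Ppara were alike (r = 0.932 to 0.971). Zfp516 followed none of these 3 (r = -0.0980 to -0.0290), and Prdm16 was most like Esrra (0.712).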

How the data were processed

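RNA of 24 libraries, 3 for each of 8 groups of depot, day and treatment, was analysed from 2 deposited FPKM tables of the same 37310 genes. The authors deposited FPKM values scaled to the gene length and to the reads on genes of each library, in separate tables for replicates 1 and 2 (16 libraries) and for replicate 3 (8 libraries). Their processing notes name FastQC 0.11.9, HISAT2 2.2.0, HTSeq 0.11 and the build mm9. Identifiers were matched to GENCODE vM1, and all 37310 were found. Whole multiples of 1 read were found in the deposited FPKM values within a tolerance of 0.01, so reads were recovered, and 3 reads were taken as the floor. Exact 95% intervals of ratios of reads cover counting error only. Groups came from the sample labels.

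Genes with FPKM of at least 1 in at least 2 of 16 libraries (14095) were tested on log2(FPKM + 1), a pseudocount of 1, with limma 3.58.1 in R 4.3.3, with 1 mean per group, a trended prior and 11.4 degrees of freedom (8 residual). Tests were two-sided, in 17 contrasts, with Benjamini-Hochberg adjustment over all genes tested and a call at an adjusted p under 0.05. The method was tested on simulated reads. Replicate 3 gave values only. The main test used the deposited FPKM values, with no count model. The recovered reads were tested in the voom alternative. Alternatives covered the pseudocount, the filter, median-ratio scaling, quantile normalization, a replicate block, voom on recovered reads, both tables together and each library left out, 26 in all, 1 of them chosen after seeing the data.

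The regulators and lists were chosen with earlier results of these data known. Named genes are the 8 regulators; from each list around them, at most 4 genes per depot, those called on day 8 with EGCG with the 2 highest and 2 lowest log2 changes and a mean of at least 5 FPKM in the higher group; the 2 most alike protein-coding genes of each regulator; and markers. A few genes that this rule names are not reported here. Replicate numbers did not pair the samples: over 28 pairs of groups the correlation of deviations was -0.0790 to 0.0810, with 0 over 0.1. Replicates 1 and 2 were further apart than read sampling gives, with a median squared difference of 1.62 to 3.90 in units of sampling variance against 0.455.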

Additional observations from a re-analysis of the deposited data

Results flagged for a closer look

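Effects that differed between groups, by limma's test of the difference itself (adjusted p under 0.05), are given as log2 differences on the log2(FPKM + 1) scale. The EGCG effect in BAT minus that in WAT cells on day 8 was -1.42 for Ppargc1b, -1.20 for Ppargc1a, -0.89 for Ppara, -0.69 for Esrra, -0.47 for Prdm16 and 0.28 for Zfp516. The EGCG effect on day 8 minus that on day 4 in WAT cells was 0.70 for Ppargc1a, 0.62 for Ppargc1b, 0.60 for Ebf2, 0.25 for Zfp516 and -0.33 for Esrra. In BAT cells it was -0.86 for Ppargc1b, -0.76 for Esrra, -0.69 for Ppargc1a, -0.39 for Prdm16, 0.30 for Ebf2 and 0.59 for Zfp516. The change from day 4 to day 8 in BAT minus that in WAT control cells was 1.57 for Ppargc1b, 1.15 for Ppargc1a, 0.85 for Ebf2, 0.49 for Esrra and 0.39 for Prdm16. On the ratio scale of the voom fit, the depot differences of Ppargc1b (-0.20) and Ppara (-0.67) and the WAT day differences of Ppargc1a (0.475) and Ppargc1b (-0.36) were not called.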

How the results depend on the processing

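Of 82 called values of the regulators, 41 were called in the same direction under all 26 alternatives, and 55 under all but the fit of 24 libraries as deposited. The WAT day 8 EGCG library of replicate 3 decides that fit: with it the genes called over all genes fell more than 1.5-fold in 15 of 17 contrasts (3081 against 7567 for EGCG in WAT day 4 cells), and without it, in 23 libraries, they did not (8467). With 24 libraries, 2 regulators were called for day 8 against day 4 in BAT control and in BAT EGCG cells, for BAT against WAT on day 4 in control and in EGCG cells, for the EGCG effect by day in WAT and in BAT cells and for the depot difference in maturation, and 3 for the EGCG effect in BAT minus WAT on day 8 (5, 4, 4, 6, 5, 6, 5 and 6 in 16 libraries). BAT against WAT on day 4 in control cells had 2 after quantile normalization. The EGCG effect in BAT minus WAT on day 4 had 1 in 23 libraries and in 24 rescaled libraries, against 0. It also had 1 without the filter, which was Esrrg, a regulator that the main fit did not test. The EGCG effect by day in WAT cells had 3 with a pseudocount of 0.1 and in the voom fit.

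With 1 library left out, the count ranged over 3 to 6 for EGCG in WAT day 8 (3 without WAT day 8 control replicate 2), 2 to 4 for day 8 against day 4 in WAT EGCG (2 without WAT day 8 EGCG replicate 1 or 2), 2 to 6 for BAT against WAT in day 4 EGCG (2 without BAT day 4 EGCG replicate 2), 0 to 1 for the EGCG effect in BAT minus WAT on day 4 (1 without BAT day 4 control replicate 1 or WAT day 4 EGCG replicate 2) and 3 to 5 for the EGCG effect by day in WAT cells (3 without WAT day 4 EGCG replicate 1, WAT day 4 control replicate 2, WAT day 8 EGCG replicate 2 or WAT day 8 control replicate 2). A left-out library leaves 1 in its group, which is assumed to vary like the others.

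Values that turned sign were, with 24 libraries, Zfp516 with EGCG in WAT day 8 (-0.18), Prdm16 for day 8 against day 4 in WAT EGCG (-0.0398), Ebf2 for the EGCG effect in BAT minus WAT on day 8 (0.33), and Prdm16 (-0.0852) and Zfp516 (-0.14) for the EGCG effect by day in WAT cells. The EGCG effect in BAT minus WAT on day 4 turned for Prdm16 (0.0409 after quantile normalization, 0.0147 with 23 or 24 libraries and when rescaled), Ppara (0.11 with a pseudocount of 0.1, 0.38 in voom) and Zfp516 (0.0305 after median-ratio scaling). Prdm16 for day 8 against day 4 in WAT control turned to -0.0786 after quantile normalization, Zfp516 for BAT against WAT in day 4 control to -0.11 after median-ratio scaling and -0.0944 after quantile normalization, and Ppargc1b for the EGCG effect by day in WAT to -0.36 in voom. With 1 library left out, 0 was crossed for Zfp516 with EGCG in WAT day 4 (-0.0590 to 0.0118), Esrra with EGCG in BAT day 4 (-0.16 to 0.15), Ebf2 (-0.17 to 0.11) and Ppara (-0.21 to 0.0395) for day 8 against day 4 in WAT EGCG, Zfp516 for BAT against WAT in day 4 EGCG (-0.0510 to 0.0115), Prdm16 (-0.12 to 0.0268) and Ppargc1b (-0.0141 to 0.12) for the EGCG effect in BAT minus WAT on day 4, and Prdm16 for the EGCG effect by day in WAT (-0.0294 to 0.12). The cause was not tested. Scaling moved the share of higher calls in other contrasts too: after median-ratio scaling it was 53.3% against 41.5% for day 8 against day 4 in BAT control, 51.5% against 74.3% for BAT against WAT in day 4 control and 56.9% against 67.6% in day 4 EGCG, and after quantile normalization 48.9% against 59% for BAT against WAT in day 8 control and 53.1% against 63.6% in day 8 EGCG.

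With a replicate block, although the numbers did not pair the samples, the counts of regulators called were unchanged in 16 of 17 contrasts. In the EGCG effect by day in WAT cells it was 4 in place of 5, where Esrra (-0.33) had an adjusted p of 0.0578 in limma, over alternatives from 0.00993 to 0.149.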
